A study of Mus musculus with 6 samples.

Results

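The genes described here encode the enzymes that cut or crosslink the extracellular matrix and the proteins that inhibit or regulate them. They were taken by gene symbol: every gene of the table named Mmp, Timp, Adam, Adamts or Adamtsl followed by a digit, together with Lox, Loxl1 to Loxl4, Tgm2, Reck and Bmp1. This gave 69 of 17030 genes. They comprised 18 matrix metalloproteinases (MMPs), 4 tissue inhibitors of metalloproteinases (TIMPs), 17 ADAMs, 17 ADAMTS proteases, 5 ADAMTS-like proteins, the 5 lysyl oxidases with Tgm2, and the pair Reck and Bmp1. The rule itself uses symbols and no measured value.

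The RNA came from mononuclear cells that had been isolated out of skeletal muscle. The donors were 6 male mice of strain C57BL/B6, all bearing LLC (Lewis lung carcinoma) tumours and all homozygous for floxed IKKb, a kinase upstream of NF-kB. In 3 mice, called Pax7-CreERT, the genotype also held Pax7 Cre ErT, a tamoxifen-activated Cre driven by Pax7, the transcription factor of muscle satellite cells. The other 3, called control, were IKKbfl/fl without Cre. Tamoxifen was given to both groups on days 10 to 14 after the tumour cells. There was no group with Cre and unfloxed IKKb, and none without a tumour, so an effect of Cre itself and one of deleting IKKb cannot be told apart. Ages were not used here. Mice are named by group and a replicate number given in accession order. The labels do not say that the mice were handled separately, so p-values measure only the spread between these samples.

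MMPs, ADAMs and ADAMTS proteases are zinc-dependent enzymes. MMPs degrade collagens and other matrix proteins, ADAMs release the outer parts of membrane proteins, and ADAMTS proteases trim proteoglycans and procollagens. TIMPs bind the active sites of these enzymes, lysyl oxidases and transglutaminase 2 join matrix proteins covalently, and in skeletal muscle many of these proteins are made by interstitial and vascular cells.

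The catalytic site that these proteases share carries 3 histidines that hold the zinc ion. A stretch of 33 coding bases with this histidine spacing was found in transcripts of 18 of 18 MMPs, 17 of 17 ADAMTS proteases, 12 of 17 ADAMs and Bmp1. It was found in 0 of 5 ADAMTS-like proteins, which are known to lack the protease domain, and not in Adam4, Adam5, Adam11, Adam22 or Adam23. The sites of the 4 proteases with the smallest p-values for a higher level, and of Adamts1 and Mmp2 as abundant members of their families, are shown with the histidine codons in capitals (GENCODE M21 transcripts, GRCm38, coding strand).
Adamts8: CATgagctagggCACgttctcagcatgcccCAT
Adam19: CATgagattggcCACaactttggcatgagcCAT
Adamts12: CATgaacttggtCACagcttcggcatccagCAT
Adamts3: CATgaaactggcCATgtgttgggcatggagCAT
Adamts1: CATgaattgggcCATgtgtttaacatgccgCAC
Mmp2: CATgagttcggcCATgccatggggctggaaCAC
The residue at position 8 of the site, counted from 1 at the first histidine, was glycine in all the MMPs and ADAMs in which the site was found and in 11 ADAMTS proteases. It was asparagine in 5 ADAMTS proteases, Adamts1 among them, and serine in Adamts8.

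Levels are in CPM: reads counted on a gene out of every 1000000 counted on any gene. Groups were compared with limma on log2(CPM + 1), so fold changes of faint genes are understated. Of the 69 genes, 62 reached 1 CPM in at least 3 of the 6 libraries and were tested among 14763 genes. The 7 below that level were Adam5, Adamts16, Adamts17, Mmp13, Mmp21, Mmp27 and Timp1. Estimated depth ran from 4054000 to 13355000 reads per library, which gave a gene at 10 CPM a counting SD of 8.65% to 15.7%. The targeted gene Ikbkb lay between 48.4 and 52.7 CPM in Pax7-CreERT mice and between 48.8 and 57.4 CPM in controls (log2 difference -0.04 ± 0.13 SE, unadjusted p = 0.739). How far a loss in satellite cells, which are 1 of several cell types here, would show in this value was not tested. Control replicate 3 stood apart in haemoglobin transcripts, which took 12.6% of its CPM against 1.84% to 4.83% in the others. In bulk RNA, fewer cells of a type and less RNA per cell cannot be told apart.

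No gene of the set passed an adjusted p under 0.05 (smallest 0.891), against 0.00677% of all genes tested. At an unadjusted p under 0.05, 4 of 62 were higher in Pax7-CreERT mice, or 6.45%, where 4.58% of all genes were. In the other direction 1 of 62 was lower, or 1.61%, against 0.942% of all genes. Groups did not overlap for 4 genes on the higher side (6.45%, against 8.69% of all genes) and for 3 on the lower side (4.84%, against 2.28%). With TMM factors, a rescaling of libraries by trimmed means, the counts at that p were 4 higher and 2 lower, against 2.59% and 2.07% of all genes. Those without overlap were then 1 higher and 4 lower, against 5.09% and 4.82%. With 3 mice against 3, a gene whose groups do not overlap has an exact 2-sided permutation p of 0.1, the smallest this design allows. The median log2 difference was 0.20 over the 62 genes and 0.09 over all genes, and 48 of the 62 (77.4%) lay above 0, against 68.0% of all genes. Leaving out Pax7-CreERT replicate 1 brought the median of the set to 0.07, against 0.08 over all genes, and the share above 0 to 60.7%, against 66.1%. The set then lay below all genes in both. Leaving out control replicate 3 as well brought it to 0.06, against 0.04 over all genes.

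**Figure D1:**
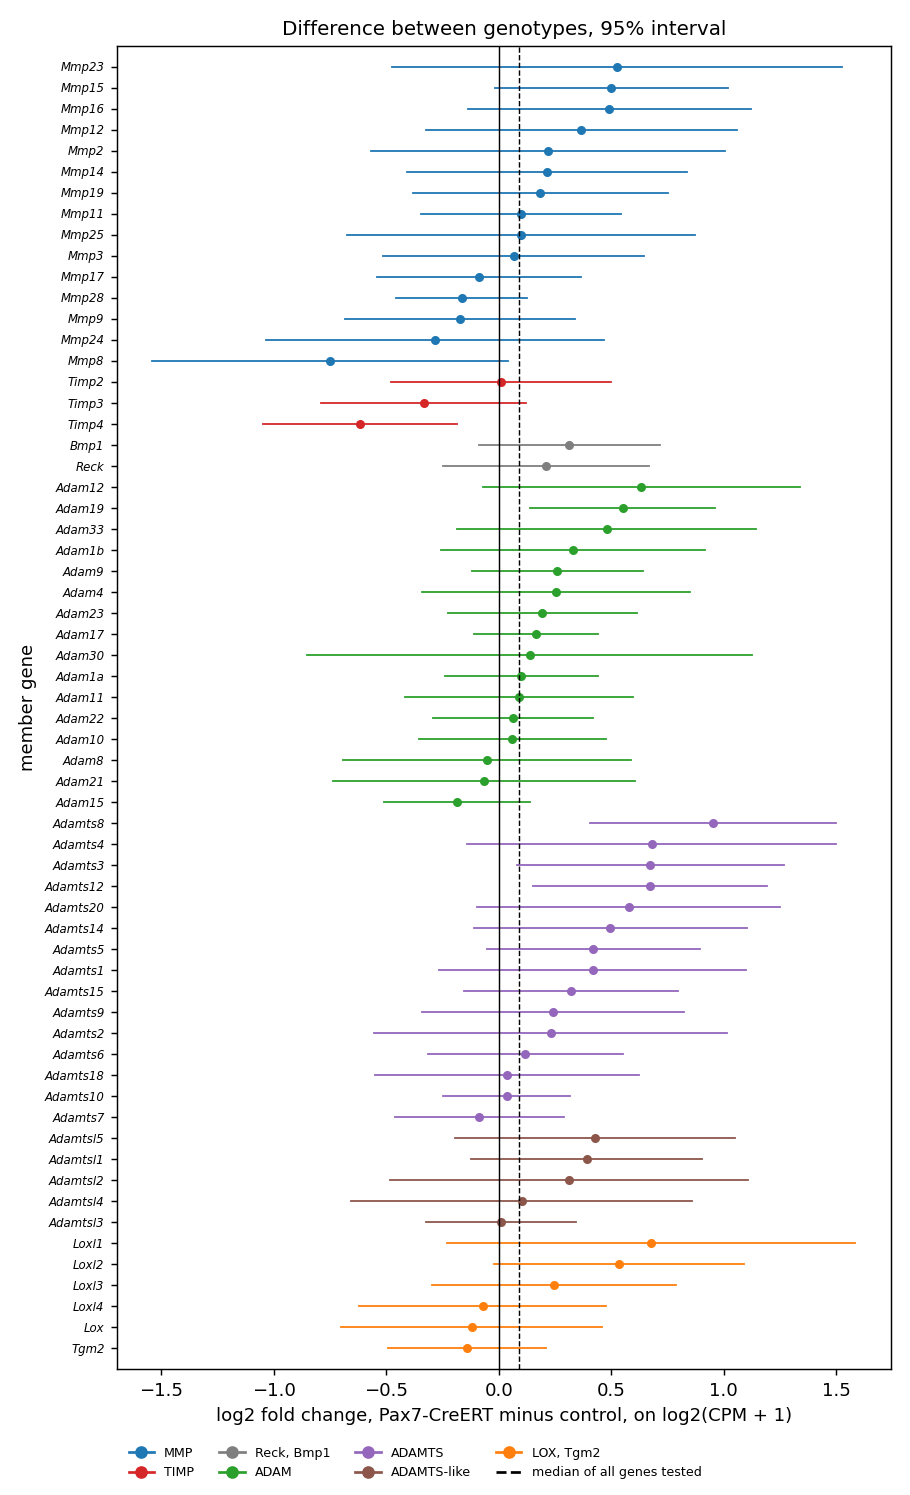
Log2 difference in CPM + 1, Pax7-CreERT minus control, of the 62 tested genes by family, with 95% intervals from limma. The dashed line is the median of all genes tested (0.09). The intervals of 5 genes leave out 0: Adamts8, Adam19, Adamts12 and Adamts3 on the higher side and Timp4 on the lower side.

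Of the 3 inhibitors tested, 2 had lower means in Pax7-CreERT mice. Timp4, a TIMP enriched in heart and muscle (chr6:115244446-115252205, minus strand), was at 312, 380 and 520 CPM in Pax7-CreERT mice and at 554, 679 and 592 CPM in controls. Every Pax7-CreERT value lay below every control value. The mean was 404 ± 106 CPM (SD, n = 3) against 609 ± 64.0 CPM (n = 3), a ratio of 0.664. The log2 difference was -0.62 ± 0.19 (SE, unadjusted p = 0.0100, adjusted p = 0.891), and without Pax7-CreERT replicate 1, the lowest library, p was 0.0521.

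Timp3, the matrix-bound TIMP that also inhibits ADAM17 (chr10:86300412-86349505, plus strand), was at 2434, 2530 and 2884 CPM in Pax7-CreERT mice. In controls it was at 2991, 3566 and 3331 CPM, again with no overlap between the groups. The log2 difference was -0.33 ± 0.20 (SE, unadjusted p = 0.133). That p was under 0.05 in 2 of 14 other settings, at 0.0490 with TMM factors and 0.0476 when haemoglobin genes were left out. In the rest it reached up to 0.296.

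Timp2, which helps MMP14 activate pro-MMP2, showed no such order. It was at 450, 280 and 256 CPM in Pax7-CreERT mice and at 277, 296 and 383 CPM in controls. The log2 difference was 0.01 (95% interval -0.48 to 0.50), with a sign that turned under both rescalings. Timp1, the TIMP induced by inflammation in many tissues, was between 0.135 and 2.34 CPM and was not tested. Summed over the 4 TIMPs, the level was 3191 to 3661 CPM in Pax7-CreERT mice and 3825 to 4542 CPM in controls. Timp1, Timp3 and Timp4 each overlap a synapsin gene on the opposite strand. Of the 69 genes, 10 overlap a gene of the data on the opposite strand and 2 one on the same strand. Whether the authors' counting used strand is not given in the sources used here. Syn3 was at 35.9 ± 4.39 against 30.3 ± 10.1 CPM and Syn2 at 9.38 ± 0.910 against 8.98 ± 2.98 CPM (SD, n = 3 each).

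**Figure D2:**
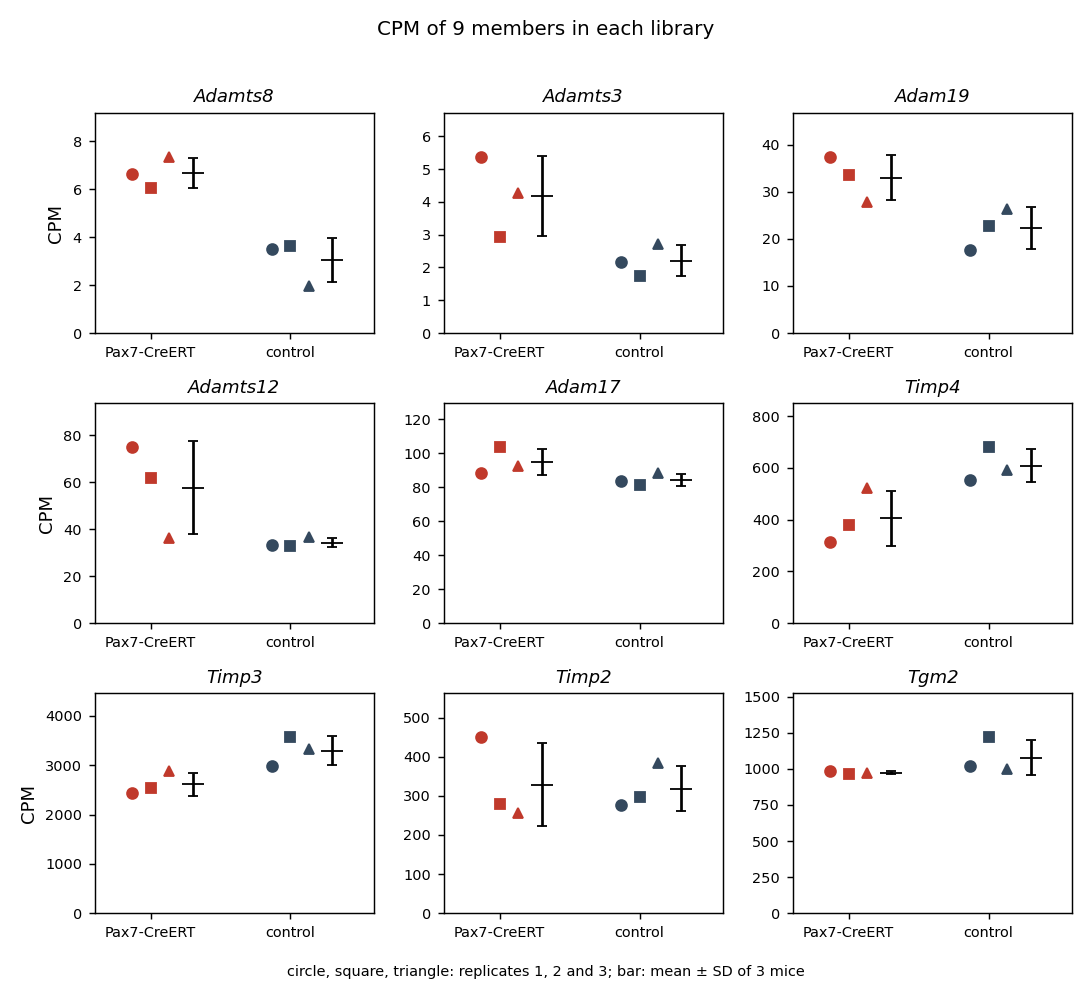
CPM of 9 genes in each library, Pax7-CreERT in red and control in blue, with symbols for replicates 1 to 3 and bars for the mean ± SD of 3 mice. Timp4 and Timp3 lie lower in every Pax7-CreERT library than in any control, and Adamts8, Adamts3 and Adam19 lie higher.

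The ADAMTS proteases had a median log2 difference of 0.42 over 15 tested genes, with 14 above 0. With either rescaling 12 of 15 were above 0, or 80%. Of all genes, 51.4% were above 0 with TMM factors and 58.4% without haemoglobin genes. Leaving out Pax7-CreERT replicate 1, alone or together with control replicate 3, brought the family median to 0.17 or 0.14. Adamts8 (chr9:30942562-30963838, plus strand), a secreted protease of the aggrecan-cleaving group, was at 6.62, 6.07 and 7.33 CPM in Pax7-CreERT mice and at 3.51, 3.64 and 1.97 CPM in controls. The groups were separate, with means of 6.67 ± 0.632 and 3.04 ± 0.926 CPM (SD, n = 3 each). The log2 difference was 0.95 ± 0.24 (SE, unadjusted p = 0.00314, adjusted p = 0.891). These values stood for an estimated 36 to 81 reads in Pax7-CreERT libraries and 8 to 27 in controls. In 14 of 14 other settings its unadjusted p stayed under 0.05, with log2 differences of 0.74 to 1.15.

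Adamts3, a procollagen N-proteinase (chr5:89673841-89883334, minus strand), was similarly faint. It was at 5.36, 2.92 and 4.27 CPM in Pax7-CreERT mice and at 2.17, 1.75 and 2.71 CPM in controls. The log2 difference was 0.67 ± 0.27 (SE, unadjusted p = 0.02997, adjusted p = 0.891), and p was 0.126 without Pax7-CreERT replicate 1. The groups were separate, but overlapped under both rescalings. Adamts12, a protease of cartilage oligomeric matrix protein (chr15:11064773-11349232, plus strand), was at 74.9, 61.9 and 36.2 CPM against 33.4, 33.01 and 36.5 CPM. Pax7-CreERT replicate 3 lay inside the control range, so the groups overlapped. Its log2 difference was 0.67 ± 0.23 (SE, unadjusted p = 0.0162, adjusted p = 0.891). It became 0.46 (unadjusted p = 0.0753) without Pax7-CreERT replicate 1 and 0.97 (unadjusted p = 0.000235, adjusted p = 0.310) without Pax7-CreERT replicate 3.

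The abundant ADAMTS members did not separate the groups. Adamts1, which cleaves versican and aggrecan and is an early response gene in many cells, was at 2034, 1826 and 1513 CPM in Pax7-CreERT mice and at 1820, 1663 and 778 CPM in controls. Control replicate 3 was the low library, and the log2 difference of 0.42 (unadjusted p = 0.202) became -0.07 without it and Pax7-CreERT replicate 1. Adamts9, another versican-cleaving protease, was at 339, 313 and 226 CPM against 294, 314 and 156 CPM, with the same low library (log2 difference 0.24, unadjusted p = 0.374). Adamts9 overlaps genes on the opposite strand, among them Gm15737 at 123 ± 45.6 against 79.3 ± 45.2 CPM (SD, 3 mice each). Whether reads were shared between them was not tested. The aggrecanases Adamts4 (0.68, unadjusted p = 0.0943), Adamts5 (0.42, unadjusted p = 0.0748) and Adamts15 (0.32, unadjusted p = 0.162), named for their role after their values were seen, had higher means that did not pass.

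The ADAMTS-like proteins bind fibrillin microfibrils and other matrix proteins without cutting them. All 5 had log2 differences above 0 (4 with either rescaling), with a median of 0.31 and unadjusted p-values from 0.120 to 0.946. Without Pax7-CreERT replicate 1, 3 of 5 lay above 0 and the median was 0.12, and without Pax7-CreERT replicate 3 it was 0.53. Adamtsl3 was at 114, 87.7 and 81.2 CPM against 87.6, 96.7 and 94.0 CPM. Adamtsl4, a fibrillin-binding protein needed for the fibres that hold the lens, was at 93.6, 43.5 and 77.7 CPM against 89.9, 75.4 and 37.5 CPM. In both genes the groups overlapped.

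Among the ADAMs, 13 of 16 tested genes had log2 differences above 0 (11 with TMM factors), with a median of 0.15 that ran from 0.07 to 0.24 with 1 library left out, without Pax7-CreERT replicate 1 and replicate 2, respectively. Adam19, a membrane protease that sheds neuregulin (chr11:46054502-46147347, plus strand), was at 37.3, 33.6 and 27.9 CPM in Pax7-CreERT mice and at 17.7, 22.8 and 26.4 CPM in controls. The groups did not overlap, with 27.9 and 26.4 CPM as the closest pair of values, but they overlapped under both rescalings. The log2 difference was 0.55 ± 0.18 (SE, unadjusted p = 0.0136, adjusted p = 0.891). It was 0.46 (unadjusted p = 0.0597) without Pax7-CreERT replicate 1 and 0.40 (unadjusted p = 0.0554) without control replicate 1, and up to 0.68 with another library left out.

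The sheddases ADAM10 and ADAM17 release Notch and tumour necrosis factor, respectively, among many substrates. Adam17 was at 88.4, 103.4 and 92.4 CPM in Pax7-CreERT mice and at 83.6, 81.0 and 88.1 CPM in controls. These groups were separate by less than 1 CPM, with a log2 difference of 0.17 (95% interval -0.11 to 0.44, unadjusted p = 0.207), and they overlapped under both rescalings. Adam10 was at 93.6, 97.1 and 76.7 CPM against 103.5, 92.8 and 63.9 CPM, a log2 difference of 0.06 (95% interval -0.36 to 0.48). Adam22, a member without a protease site, was at 126, 112 and 99.7 CPM against 130, 104 and 91.5 CPM. Adam15, found on endothelial cells, was at 104, 94.1 and 84.5 CPM against 96.5, 125 and 101 CPM, a log2 difference of -0.18 (unadjusted p = 0.231).

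The matrix metalloproteinases showed no member at an unadjusted p under 0.05 and no member whose groups were separate, with a median log2 difference of 0.10 and 10 of 15 above 0. Without Pax7-CreERT replicate 1 the median was -0.07 with 6 of 14 above 0, and without Pax7-CreERT replicate 2 it was 0.24. Mmp2, the gelatinase of fibroblasts, was at 140, 74.5 and 53.7 CPM in Pax7-CreERT mice and at 51.2, 61.7 and 112 CPM in controls. Mmp14, the membrane protease that activates pro-MMP2, was at 158, 90.8 and 72.3 CPM against 69.2, 81.8 and 117 CPM. Both were highest in Pax7-CreERT replicate 1 and next highest in control replicate 3. Their log2 differences of 0.22 (unadjusted p = 0.546) and 0.22 (unadjusted p = 0.458) became -0.16 and -0.10 without Pax7-CreERT replicate 1, and reached 0.55 and 0.46 with another library left out.

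Mmp8 and Mmp9 are stored in neutrophil granules. Mmp8 (chr9:7558429-7568486, plus strand), the neutrophil collagenase, was at 3.26, 3.59 and 7.12 CPM in Pax7-CreERT mice and at 4.68, 8.76 and 12.6 CPM in controls, from an estimated 28 to 65 reads per library. The groups overlapped, and the log2 difference was -0.75 ± 0.35 (SE, unadjusted p = 0.0613). It was -0.46 (unadjusted p = 0.202) without control replicate 3, but -1.09 (unadjusted p = 0.00958) without control replicate 1 and -1.04 (unadjusted p = 0.0183) without Pax7-CreERT replicate 3, both with separate groups. Mmp9 was at 8.10, 5.32 and 8.34 CPM against 6.69, 8.62 and 9.37 CPM. The summed level of 11 neutrophil markers ran from 71.3 to 115 CPM in Pax7-CreERT mice and from 94.6 to 134 CPM in controls. Of the 8 tested, 7 lay below 0 in log2 difference, and 1, S100a9, was lower at an unadjusted p under 0.05. Over all genes, 0.942% were lower at that p and 68.0% lay above 0. The part of these markers in the Mmp8 values was not tested. Mmp13, the other collagenase of the set, lay between 0.075 and 1.05 CPM, or 1 to 10 estimated reads, and was not tested. Mmp15, a membrane MMP named after its values were seen, was at 40.3, 59.6 and 31.8 CPM against 23.6, 31.9 and 34.8 CPM (log2 difference 0.50, unadjusted p = 0.0571).

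The crosslinking enzymes split evenly, with 3 of 6 log2 differences above 0 and a median of 0.09. Without control replicate 3, 5 of 6 lay above 0 with a median of 0.32, and 3 of them were at an unadjusted p under 0.05. Among all genes, 59.0% then lay above 0 with a median of 0.04, and 4.95% were higher at that p. Without control replicate 1 the median of the 6 enzymes was 0.01. Tgm2, the most abundant of them per kilobase of exon, was at 989, 963 and 973 CPM in Pax7-CreERT mice and at 1022, 1219 and 996 CPM in controls. The groups were separate, but the log2 difference was -0.14 (95% interval -0.49 to 0.21, unadjusted p = 0.391). Loxl2, which crosslinks collagen IV, was at 78.8, 56.8 and 37.7 CPM against 31.9, 36.4 and 46.9 CPM (log2 difference 0.53, unadjusted p = 0.0584). Loxl1, which acts on elastin, was at 57.2, 29.95 and 20.4 CPM against 11.7, 19.8 and 34.5 CPM (0.68, unadjusted p = 0.126).

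Neither Loxl2 nor Loxl1 separated the groups, and both depended on single libraries. Loxl2 ran from 0.28 without Pax7-CreERT replicate 1 to 0.80 (unadjusted p = 0.00499, groups separate) without its replicate 3. Loxl1 ran from 0.29 without Pax7-CreERT replicate 1 to 1.05 (unadjusted p = 0.0126, groups separate) without control replicate 3. Lox, the founding lysyl oxidase, was at 90.9, 53.7 and 53.1 CPM against 73.6, 49.0 and 92.5 CPM. Loxl3 was at 25.5, 24.3 and 24.5 CPM against 15.4, 17.9 and 32.3 CPM, and Loxl4 at 31.9, 21.9 and 15.5 CPM against 25.1, 19.1 and 26.4 CPM. Bmp1, the procollagen C-proteinase that also activates lysyl oxidase, was at 60.9, 45.2 and 41.3 CPM against 33.4, 38.3 and 45.6 CPM (log2 difference 0.31, unadjusted p = 0.112). Reck, a membrane-anchored MMP inhibitor, was at 20.1, 16.3 and 11.8 CPM against 14.2, 12.7 and 13.6 CPM (0.21, unadjusted p = 0.332).

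Mean levels over all 6 libraries were ordered per kilobase of exon. Timp3 was highest, at 626 CPM per kilobase. Adamts1 followed at 329 and Tgm2 at 286, with Timp2 at 87.2 and Timp4 at 85.9. The leading MMPs were Mmp2 at 26.7 and Mmp14 at 23.5, and the sheddases Adam17 and Adam10 were at 19.8 and 19.1.

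**Figure D3:**
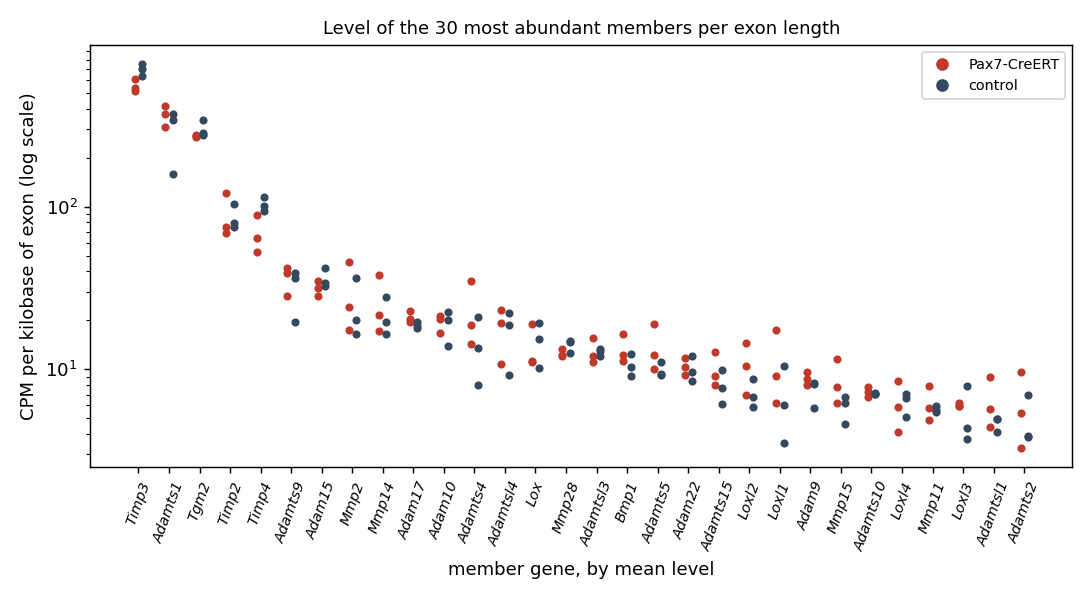
CPM per kilobase of exon, on a log scale, of the 30 most abundant genes in each of 6 libraries, Pax7-CreERT in red and control in blue, ordered by mean level. Timp3, Adamts1 and Tgm2 lead, with means of 626, 329 and 286.

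Individual libraries moved the set as a whole. Pax7-CreERT replicate 1 held the highest value of 32 of the 62 genes, or 51.6%, where it was highest for 20.4% of all genes. Control replicate 3 held the lowest value of 14 genes, or 22.6%, against 39.8% of all genes. For 15 of the 62 genes (24.2%) these 2 libraries, from opposite groups, lay above the other 4, where 7.11% of all genes did so. This group of 15 was picked after its values were seen and is a description only. It held Mmp2, Mmp11, Mmp14, Mmp19, Timp2, Adam11, Adam33, Adamts2, Adamts15, Adamtsl5, Lox, Loxl1, Loxl3, Loxl4 and Bmp1.

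Sums of some marker lists moved along with these libraries. Summed over 12 markers of fibro-adipogenic progenitors, the matrix-producing cells of muscle, the level was 7474 CPM in Pax7-CreERT replicate 1 and 6022 CPM in control replicate 3, and 3886 to 4373 CPM in the other 4. Dcn and Gsn weighed most, at 2545 and 1699 CPM in control replicate 3. Pdgfra, Pi16, Dpp4, Mfap5 and Cd34 were also highest in those 2 libraries. Lum, Col1a1, Col3a1 and Smoc2 were instead higher in Pax7-CreERT replicate 2 than in control replicate 3, where Ly6a was lowest. Macrophage markers summed to 866 CPM in Pax7-CreERT replicate 1 and 1229 CPM in control replicate 3, and to 466 to 610 CPM elsewhere. Tenocyte markers summed to 334 and 256 CPM in those 2 libraries and to 99.0 to 215 CPM elsewhere. Fmod weighed most, at 203 and 150 CPM there, and only Fmod and Kera were highest in both libraries. Thbs4 and Mkx were instead higher in control replicate 1 than in control replicate 3. Tnmd and Col11a1 were higher in Pax7-CreERT replicate 2 than in control replicate 3, and Scx was higher in Pax7-CreERT replicate 3 than in replicate 1. At an unadjusted p under 0.05, where 4.58% of all genes were higher, 4 of the 12 progenitor markers were higher in Pax7-CreERT mice. Of the 10 markers of mature myofibres, 9 were higher by this measure, with sums of 2046 to 2885 CPM against 978 to 1675 CPM. Pericyte and smooth muscle markers, 3 of 9 of them higher by it, summed to 9184 to 11597 CPM against 7225 to 9179 CPM. Rgs5 weighed most in that sum, at 6849 to 8759 CPM against 5338 to 7024 CPM, and its groups overlapped. Endothelial markers summed to 7016 to 7641 CPM against 6793 to 9344 CPM. Satellite cell markers summed to 416 to 457 CPM against 398 to 455 CPM. No defining marker of these lists was at 0 in every library. The part of these cell types in the values of the proteases and inhibitors was not tested.

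**Figure D4:**
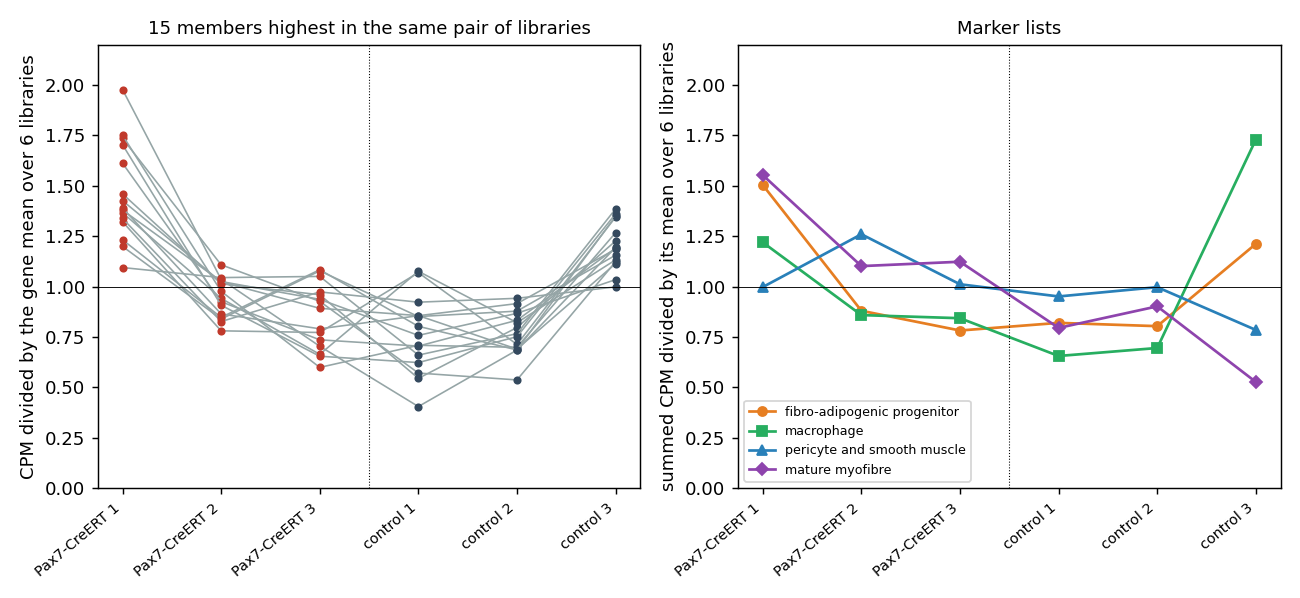
Left, CPM divided by the gene's mean over 6 libraries for the 15 genes highest in Pax7-CreERT replicate 1 and control replicate 3. Right, the same for the summed CPM of 4 marker lists. The fibro-adipogenic progenitor and macrophage sums are also highest in those 2 libraries, the first with Dcn and Gsn as its largest terms there.

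**Figure D5:**
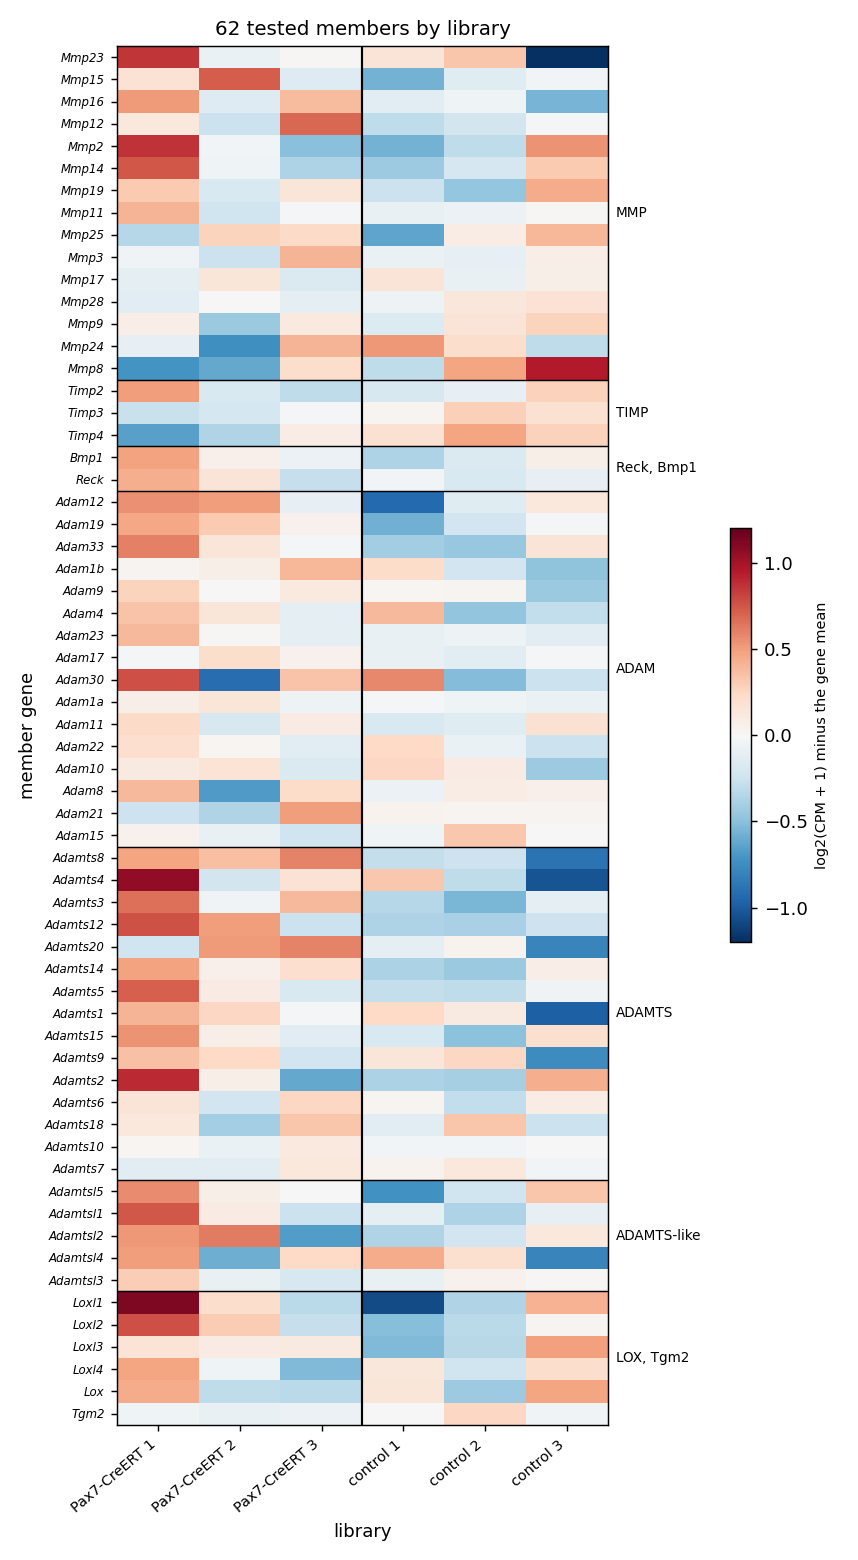
Log2(CPM + 1) minus the gene's mean over 6 libraries for the 62 tested genes, ordered by family and by the difference between groups. Red is above the mean and blue below, and Pax7-CreERT replicate 1 is the highest library for 32 genes.

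Other genes of matrix turnover, from lists outside the set, were read from the same fit, and none passed an adjusted p under 0.05. Of 25 tested matrix substrates, 9 were higher and 0 lower at an unadjusted p under 0.05, with a median log2 difference of 0.52. The share higher among all genes was 4.58%. Each of those 9 was highest in Pax7-CreERT replicate 1, such as Col3a1 at 815, 535 and 189 CPM against 149, 187 and 234 CPM. The count without that library was not read. The smallest p-values were those of Col6a2, a collagen VI chain, at 145 ± 52.3 against 69.1 ± 7.02 CPM, Col1a1, a collagen I chain, at 130 ± 85.6 against 39.97 ± 10.9 CPM, and Postn, encoding periostin, at 34.5 ± 8.24 against 21.04 ± 4.23 CPM (SD, 3 mice each). Col1a1, Col3a1 and Lum are counted as higher both here and among the progenitor markers above, so the 2 counts share genes. Dcn is also in both lists.

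Of 17 collagen maturation enzymes, 1 was higher and 0 lower (median 0.10). It was Pcolce, the enhancer of procollagen C-proteinase, at 45.1 ± 11.7 against 26.6 ± 0.786 CPM, followed by Plod1 (-0.24, unadjusted p = 0.0732) and P3h2 (0.37, unadjusted p = 0.0778). The 13 tested genes of plasminogen activation and other serine proteases had a median log2 difference of 0.23, with 1 higher and 0 lower at an unadjusted p under 0.05. Fap, a fibroblast surface protease, had a log2 difference of 0.62 (unadjusted p = 0.0753), and Serpina3n, a serine protease inhibitor, one of -0.79 (unadjusted p = 0.137). Of 11 proprotein convertases and partners of ADAM10 and ADAM17, 0 were higher and 0 lower (median 0.04), with Tspan33 (-1.05, unadjusted p = 0.108), Pcsk5 (0.33, unadjusted p = 0.113) and Tspan17 (0.24, unadjusted p = 0.222) having the smallest p-values.

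Because IKKb acts through NF-kB, the 250 bases upstream of start sites were searched on both strands for the 10-letter NF-kB consensus, for the AP-1 site TGANTCA and for the GC box GGGCGG. Promoters were matched for 42 of the 69 genes (RefSeq, GRCm38.p6). Shares over all genes here are of the 27025 genes with an annotated promoter, which include genes outside the 17030 of the data. A gene counted when any of its start sites matched, so genes with more start sites had more chances. The NF-kB consensus was found in 7 of the 42, or 16.7%, against 8.23% of all genes. They were Adam19, Adam1b, Adamts9, Adamts20, Loxl4, Mmp12 and Mmp25. The AP-1 site was found in 4, or 9.52% against 7.82%, and the GC box in 26, or 61.9% against 35.4%. A match describes the letters only.

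The upstream windows of 4 genes with an unadjusted p under 0.05, and of Timp3, which was lower without overlap as Timp4 was, are shown 5′ to 3′ on the gene's strand, from the start site nearest that of the table. Capitals mark the GC box on the opposite strand.
Timp4, chr6:115252206-115252455, minus strand: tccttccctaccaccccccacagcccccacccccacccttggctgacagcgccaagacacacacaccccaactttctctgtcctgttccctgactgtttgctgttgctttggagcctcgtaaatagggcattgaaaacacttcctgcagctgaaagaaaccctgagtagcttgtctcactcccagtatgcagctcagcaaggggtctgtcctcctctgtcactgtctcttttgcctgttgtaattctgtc
Timp3, chr10:86300162-86300411, plus strand: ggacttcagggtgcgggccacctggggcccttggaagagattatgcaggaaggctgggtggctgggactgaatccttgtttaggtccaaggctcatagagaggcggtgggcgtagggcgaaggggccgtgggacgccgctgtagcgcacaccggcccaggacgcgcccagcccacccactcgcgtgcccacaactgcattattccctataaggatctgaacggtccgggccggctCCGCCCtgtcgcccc
Adam19, chr11:46054252-46054501, plus strand: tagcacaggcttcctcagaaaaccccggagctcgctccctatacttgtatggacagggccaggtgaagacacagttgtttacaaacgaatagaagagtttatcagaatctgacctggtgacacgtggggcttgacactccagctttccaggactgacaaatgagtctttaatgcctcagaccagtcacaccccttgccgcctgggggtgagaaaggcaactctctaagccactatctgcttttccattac
Adamts12, chr15:11064523-11064772, plus strand: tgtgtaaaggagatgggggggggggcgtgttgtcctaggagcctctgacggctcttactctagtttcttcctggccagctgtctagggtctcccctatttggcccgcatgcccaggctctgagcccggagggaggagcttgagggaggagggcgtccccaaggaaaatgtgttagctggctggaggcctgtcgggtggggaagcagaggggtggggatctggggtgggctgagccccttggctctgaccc
Adamts3, chr5:89883335-89883584, minus strand: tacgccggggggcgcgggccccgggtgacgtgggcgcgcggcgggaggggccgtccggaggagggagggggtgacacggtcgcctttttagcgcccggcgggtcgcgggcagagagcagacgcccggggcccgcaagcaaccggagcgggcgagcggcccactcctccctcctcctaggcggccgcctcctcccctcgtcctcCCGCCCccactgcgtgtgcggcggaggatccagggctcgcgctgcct
The windows of Timp4 and Timp3 differed in base composition, with G and C at 53.6% and 65.6%. None of the 5 windows held the NF-kB consensus or the AP-1 site. The matches of Adam19 to both lay upstream of its other annotated start sites.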

How the data were processed

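RNA from mononuclear cells of skeletal muscle of 6 mice, 3 per genotype, was sequenced with a strand-specific kit, per the labels' protocols. The deposited values are CPM per gene with 0.0001 added, read from the values, since each library sums to 1000000. The authors named Partek, DESeq2 and the build mm10, per the submitters' processing notes, with no role for each. Aligner, counting rule and annotation are not given in the sources used here. Depth was estimated from the CPM worth 1 read. Of values up to 20 reads, 92.9% to 94.0% were whole within 0.05 read, short of the 95% required, so no count test was run.

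Testing was limited to genes that reached 1 CPM in 3 or more libraries, and was done with limma 3.58.1 (R 4.3.3) on log2(CPM + 1) with a mean-variance trend, Benjamini-Hochberg adjustment over 14763 genes and no covariate. The test was tried on simulated data. Permutation tests were exact and 2-sided. In gene positions, 1 was subtracted from each end of the table, since 11050 ends lay 1 past RefSeq's.

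Values in every library are given for genes at an unadjusted p under 0.05, for genes without overlap and at a log2 difference of 0.5 or more, for the 2 genes of each family with the highest mean CPM, for tested TIMPs, lysyl oxidases, Tgm2, Reck and Bmp1, and for Mmp2, Mmp8, Mmp9, Mmp13, Mmp14, Adam10 and Adam17. In each of 4 pathway lists the 3 smallest p-values are named, except 1 gene that is not reported here. The genes, the pathway lists and the 13 marker lists were chosen with earlier results of these data known. Group means of further marker lists were tenocyte (summed CPM 217 ± 103 in Pax7-CreERT, 190 ± 81.3 in control), Schwann cell (1068 ± 153, 927 ± 29.4), B cell (36.7 ± 42.1, 57.0 ± 73.7), T and NK cell (7.73 ± 5.23, 9.15 ± 8.13), adipocyte (31.1 ± 15.3, 48.2 ± 27.4) and erythroid (28722 ± 15188, 60898 ± 51530) (SD, 3 mice each). The T and NK cell sum rests on the 3 of its 6 genes present in the data, 1 of them tested.

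The catalytic site was searched in the longest reading frame of GENCODE M21 transcripts. The search pattern was tried in 4 forms, each chosen after seeing which genes the one before had matched. With glycine alone at position 8 it was found in 11 of 17 ADAMTS proteases, with glycine or asparagine in 16, and with serine also allowed in 17. The form reported allows any residue there and also gave 17. The counts of the other families were equal in all 4 forms.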

Additional observations from a re-analysis of the deposited data

How the results depend on the processing

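No paired analysis was possible because replicate numbers were given in accession order only. In 14 other settings no gene of the set passed an adjusted p under 0.05. The count higher at an unadjusted p under 0.05 (4) was 16 with array weights (25.8%, against 6.01% of all genes) and 7 when the first Pax7-CreERT and the third control library were both left out (11.48%, against 3.26%). With 1 library left out it ran from 2 to 14: it was 2 without Pax7-CreERT replicate 1 (3.28%, against 2.18% of all genes), 10 without its replicate 3 (16.4%, against 4.66%) and 14 without control replicate 3 (23.0%, against 4.95%). The count lower (1) was 2 with TMM factors, 2 without haemoglobin genes and 2 with array weights, or 3.23% each. The shares lower among all genes were 2.07%, 1.45% and 1.59%, respectively. With 1 library left out the count lower was 0 to 2, or 0% to 3.28%, against 0.479% to 1.53% of all genes. The 7 genes without overlap became 4 without haemoglobin genes, with 1 higher and 3 lower (1.61% and 4.84%, against 6.91% and 3.39% of all genes). They became 23 without both libraries (18 higher and 5 lower, or 29.5% and 8.20%, against 20.2% and 11.3% of all genes). With 1 library left out there were 7 to 21, where fewer mice make separate groups more frequent. The 7, without control replicate 2, were 4 higher and 3 lower (6.45% and 4.84%, against 17.1% and 5.10% of all genes). The 21, without Pax7-CreERT replicate 3, were 15 higher and 6 lower (24.6% and 9.84%, against 18.7% and 5.21%). The split of higher against lower differences moved from 48 and 14 to 42 and 20 with TMM factors, which moved the median of all genes from 0.09 to 0.006. The median of the set ran from 0.07 to 0.26 with 1 library left out.

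Of 378 log2 differences of 27 named genes over these settings, 340 kept their direction and 38, in 12 genes, turned, and none passed the adjusted threshold. With TMM factors the turned values were Adam10 (-0.0286), Adam22 (-0.0260), Adamtsl3 (-0.0788) and Timp2 (-0.0790), and without haemoglobin genes Adamtsl3 (-0.0425) and Timp2 (-0.0424). With array weights they were Adam10 (-0.0376), Adamtsl4 (-0.126), Lox (0.101) and Loxl4 (0.0720). Without both libraries they were Adam10 (-0.181), Adam22 (-0.135), Adamts1 (-0.0660), Adamts9 (-0.191), Adamtsl3 (-0.124), Adamtsl4 (-0.494) and Timp2 (-0.0982). With 1 library left out, differences that turned in at least 1 case ran from -0.143 to 0.201 for Adam10, -0.0496 to 0.199 for Adam22, -0.0750 to 0.426 for Adamts9, -0.134 to 0.110 for Adamtsl3, -0.269 to 0.421 for Adamtsl4 and -0.372 to 0.0854 for Lox. They ran from -0.323 to 0.175 for Loxl4, -0.104 to 0.456 for Mmp14, -0.158 to 0.546 for Mmp2, -0.298 to 0.0101 for Mmp9 and -0.238 to 0.168 for Timp2. The cause was not tested. Depth limits the faint genes: the 8 reads of Adamts8 in control replicate 3 carry a counting SD of 35.4%, which covers counting error only.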
